A study of Mus musculus with 12 samples.

Results

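Cxcl1, Cxcl2, Cxcl3 and Cxcl5 are the 4 genes described here, the CXC chemokines that draw neutrophils into inflamed tissue. They were chosen by gene symbol from the 22243 genes of the deposited table, and all 4 were among the 8780 genes that averaged 1 TPM or more and were tested. TPM states a level per length of transcript on a scale that has the same total in every library. Cxcl2 was among the most abundant transcripts of these macrophages, Cxcl1 and Cxcl3 were less abundant, and Cxcl5 was the least. Mean levels of all 4 were higher in libraries labelled ErbB4 myeKO than in those of ErbB4 FF littermates, with mean within-litter log2 ratios of 1.26 (Cxcl3), 1.14 (Cxcl1), 1.09 (Cxcl2) and 0.78 (Cxcl5). In the fit across all genes none of the 4 passed the threshold of an adjusted p under 0.05, and most of the size of the first 3 ratios came from litters 2 and 4.

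These chemokines carry the amino acids Glu-Leu-Arg just before the paired cysteines of the CXC fold, and they bind CXCR2 on neutrophils. Macrophages make them within hours of sensing LPS, when NF-κB and other factors switch on transcription of genes that are otherwise nearly silent. Their mRNAs are short-lived, because AU-rich elements behind the coding sequence are bound by decay factors such as tristetraprolin (Zfp36), so that levels depend on both synthesis and decay.

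Bulk polyA RNA was sequenced from M1-activated bone marrow-derived macrophages (BM-Mɸs) of C57Bl/6 mice, 6 ErbB4 myeKO and 6 ErbB4 FF, with 1 mouse of each genotype from each of 6 litters. ErbB4 FF mice carry LoxP-flanked Erbb4, a receptor tyrosine kinase gene, and ErbB4 myeKO mice carry in addition Cre recombinase under LysM (Lyz2), which is active in myeloid cells. The cells were grown out in medium conditioned by CMG14-12 cells as the source of M-CSF, and all 12 cultures received IFN-γ (100 U/mL, 16 h) followed by LPS (100 ng/mL, 6 h), so that no unstimulated level was measured. The question was whether loss of ErbB4 in macrophages changes what they make when activated. The labels give neither age nor sex, and the batch letter on the labels is the same for both mice of a litter.

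Each gene had 1 transcript in the table. The genes lie on the plus strand of chromosome 5 in GRCm38: Cxcl5 at chr5:90759360-90761624, Cxcl3 at chr5:90786103-90789600, Cxcl1 at chr5:90891241-90893115 and Cxcl2 at chr5:90903871-90905938. The promoter windows of 3 members follow, because they show the letters that these genes share just ahead of their start sites. They come from RefSeq (GRCm38.p6), plus strand, and each reaches from 250 bases before the start site to 50 bases after it. The windows are chr5:90890995-90891294 for Cxcl1, chr5:90903649-90903948 for Cxcl2 and chr5:90785851-90786150 for Cxcl3. Capitals mark matches to the NF-κB-type motif GGNNTTTCC on either strand, and the run ATAAAAG. That run, a known variant of the core promoter box, was added to the search after these windows had been read.
Cxcl1: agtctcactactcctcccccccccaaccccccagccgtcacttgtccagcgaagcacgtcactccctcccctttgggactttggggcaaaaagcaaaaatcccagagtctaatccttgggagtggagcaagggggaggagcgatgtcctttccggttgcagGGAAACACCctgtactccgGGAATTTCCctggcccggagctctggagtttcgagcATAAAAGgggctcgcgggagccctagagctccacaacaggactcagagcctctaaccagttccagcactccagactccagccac
Cxcl2: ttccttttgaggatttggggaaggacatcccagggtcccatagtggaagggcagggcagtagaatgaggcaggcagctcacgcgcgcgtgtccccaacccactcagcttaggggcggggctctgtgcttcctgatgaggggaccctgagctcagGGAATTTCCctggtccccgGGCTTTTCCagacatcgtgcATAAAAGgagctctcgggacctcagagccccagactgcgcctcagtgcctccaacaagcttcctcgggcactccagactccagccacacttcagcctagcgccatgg
Cxcl3: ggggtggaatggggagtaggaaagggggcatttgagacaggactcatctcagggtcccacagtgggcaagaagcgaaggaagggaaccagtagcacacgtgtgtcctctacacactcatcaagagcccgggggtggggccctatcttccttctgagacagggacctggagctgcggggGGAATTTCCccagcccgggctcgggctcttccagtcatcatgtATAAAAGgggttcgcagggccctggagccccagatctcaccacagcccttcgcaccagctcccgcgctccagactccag

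The same 9 letters, GGAATTTCC, stood in all 3 windows, 70 bases before the start site in Cxcl1, 96 in Cxcl2 and 72 in Cxcl3. Cxcl1 held another match to the motif on the minus strand, 89 bases before the start, and Cxcl2 held another on the plus strand, GGCTTTTCC, 77 bases before it. Of 32851 RefSeq promoter windows of the same length, 5.82% held at least 1 match and 0.253% held 2 or more. ATAAAAG was found once in each of the 3 windows, at 34, 57 and 29 bases before the start of Cxcl1, Cxcl2 and Cxcl3, against 5.42% of all windows. These distances depend on the start site used. From the gene starts of GENCODE M21 printed above, ATAAAAG lay 30, 29 and 31 bases upstream and GGAATTTCC 66, 68 and 74 bases upstream in Cxcl1, Cxcl2 and Cxcl3, the start of Cxcl2 being 28 bases further upstream there than in RefSeq. The textbook letters TATAAA, found in 13.6% of all windows, occurred among the members' windows in that of Cxcl3, where they overlap the ATAAAAG run. Windows of the neighbouring chemokine genes Pf4, Ppbp and Cxcl15 held no match to GGNNTTTCC. That of Ppbp held ATAAAAG on the minus strand and TATAAA 2 times, and that of Cxcl15 held TATAAA once. A match of letters does not show that a factor was bound in these cells.

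**Figure D1:**
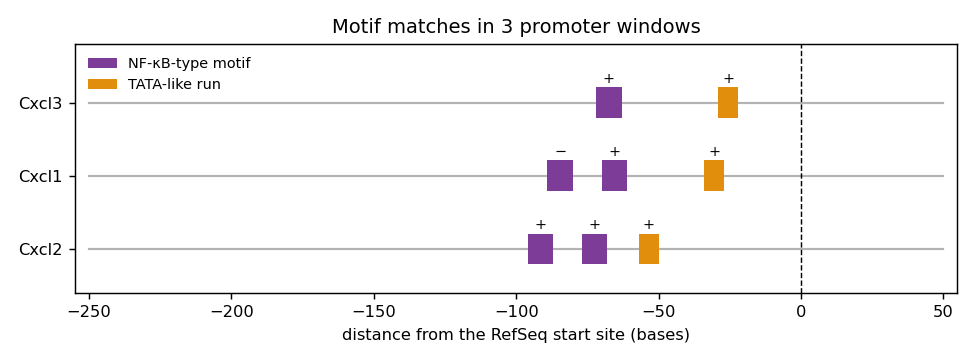
Positions of motif matches in the RefSeq promoter windows of Cxcl3, Cxcl1 and Cxcl2, in bases from the start site (dashed line), with the strand of each match written above it. All 3 windows hold an NF-κB-type match between 62 and 96 bases before the start, and a TATA-like run downstream of it.

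The members' transcripts are rich in ATTTA, the core of the AU-rich element, after the coding end. Cxcl2 held 11 copies in 734 bases, Cxcl1 7 in 592 bases, Cxcl3 5 in 645 bases and Cxcl5 5 in 1111 bases. Among 28805 principal coding transcripts the median was 1 copy, and 3.95% held as many as Cxcl2, 10.02% as many as Cxcl1 and 16.6% as many as Cxcl3 and Cxcl5. The longer letters TATTTAT, a site of tristetraprolin, occurred 7 times in Cxcl2 and 6 times in Cxcl1, which 0.174% and 0.333% of transcripts matched or exceeded. Cxcl3 held it 2 times and Cxcl5 once, as many as 8.08% and 22.4% of transcripts. The 30-base stretch with the most copies of ATTTA (capitals) is shown for each member, to make this difference in density visible.
Cxcl1: gagggtcctATTTATTTAtgtATTTATTTA
Cxcl2: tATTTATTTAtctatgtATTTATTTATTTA
Cxcl3: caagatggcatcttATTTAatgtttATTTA
Cxcl5: agcttcctgctcatctcacaagtgtATTTA

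Shared sequence limits how exactly reads can be given to 1 gene. Cxcl2 and Cxcl3 shared 80 stretches of 31 bases, 7.41% of those in the Cxcl2 transcript and 8.11% of those in Cxcl3, while Cxcl1 shared none with another gene. Each gene has 2 to 4 annotated transcripts, and 90.1% to 97.2% of a member's 31-base stretches recur in the gene's other transcripts. A change in which transcript was used could therefore not be told apart from a change in level.

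Erbb4, the targeted gene, was near the detection limit and did not separate the genotypes. Its TPM in litters 1 to 6 was 0.652, 0.313, 0.807, 0.594, 0.280 and 0.852 in libraries labelled ErbB4 myeKO, and 0.373, 0.397, 0.716, 0.430, 0.372 and 0.411 in those labelled ErbB4 FF. The value sums reads over the whole transcript, including exons outside a LoxP-flanked one, so it does not check the deletion. The genotype names used here are therefore those of the labels.

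The cells carried macrophage genes, and genes of neutrophils at lower levels. The TPM of 10 macrophage markers summed to between 9264 and 13463 in libraries labelled ErbB4 myeKO and between 8218 and 17390 in ErbB4 FF, lower in the former in 5 of 6 litters. Lyz2, the gene whose locus drives Cre, was the largest part of that sum at 5305 ± 1985 TPM (SD, n = 6) against 8277 ± 3445. Its log2 ratio was -0.59 ± 1.00 (exact permutation p = 0.219). It had the largest difference in mean TPM of the 10 markers, and the part of the Cre allele in that difference was not tested. Of the 10 markers 6 had a log2 ratio below 0 and 4 above, from Fcgr1 at -0.86 ± 0.74, lower in 6 of 6 litters, to Cd14 at 0.16 ± 0.55 and Mertk at 0.14 ± 0.19, the latter higher in 6 of 6. Fcgr1 was the list's 1 gene at an unadjusted limma p under 0.05 (exact permutation p = 0.03125, limma adjusted p = 0.603). Of 14 neutrophil markers, Retnlg was listed at 0 in all 12 libraries, and Ly6g, Mpo and Elane did not exceed 0.448, 0.549 and 0.377 TPM. Ngp reached 18.4 TPM and Camp, a granule peptide gene, 10.5 TPM. Camp was higher in 6 of 6 litters, at a log2 ratio of 0.45 ± 0.41 (SD; exact permutation p = 0.03125, limma adjusted p = 0.603), and was the list's 1 gene at an unadjusted limma p under 0.05. Csf3r at -0.43, Ngp at -0.36 and S100a9 at -0.24 went the other way, and the 6 tested members split 3 above and 3 below 0, with a median of -0.07. The summed neutrophil markers, mostly S100a8, S100a9 and Csf3r, ranged from 64.4 to 419 TPM against 65.8 to 235, and were higher in libraries labelled ErbB4 myeKO in 2 of 6 litters (mean log2 ratio -0.03 ± 0.66). The 11 stromal markers, led by Col1a2 and Col1a1, summed to 14.2 to 116 TPM against 18.5 to 127. The sum was higher in libraries labelled ErbB4 myeKO in 3 of 6 litters (mean log2 ratio 0.32 ± 0.97). All 8 tested stromal markers had a mean log2 ratio above 0, with a median of 0.16, and 0 were at an unadjusted limma p under 0.05. The 10 dendritic cell markers, nearly all from Ccr7 and Xcr1, summed to 44.7 to 122 TPM against 30.9 to 94.0, higher in 5 of 6 litters. Ccr7, the larger part at a mean of 53.5 TPM against 41.7, is also in the authors' M1 macrophage gene set, so the sum is not particular to dendritic cells. Xcr1 itself reached 28.996 TPM, with a log2 ratio of 0.63 ± 0.66 (SD, higher in 5 of 6 litters; exact permutation p = 0.0938, limma adjusted p = 0.603). It was the list's 1 gene at an unadjusted limma p under 0.05, and all 3 tested members were above 0, with a median of 0.33. Clec9a reached 4.39 TPM, at 0.10 ± 1.70 and higher in 5 of 6. Cd209a and Siglech were listed at 0 in all libraries, and Flt3 and Zbtb46 did not exceed 0.0789 and 0.394 TPM. Over the 12 libraries that sum correlated with Cxcl1, Cxcl2 and Cxcl3 at r = 0.56, 0.53 and 0.48 on the log2 scale, and its part in their levels was not tested. Endothelial, lymphocyte, mast cell and basophil, erythroid and megakaryocyte, and proliferation markers summed to at most 20.0, 3.75, 5.20, 46.9 and 46.2 TPM in any library. Among these lists, 2 genes were at an unadjusted limma p under 0.05 (limma adjusted p = 0.603 for both). Endothelial Pecam1, on levels of 0 to 4.50 TPM, had a log2 ratio of -1.25 ± 1.09, above 0 in 1 of 6 litters. Mki67, of the proliferation list, had one of 0.42 ± 0.38, above 0 in 5 of 6. The number of genes above 0 was lowest in both libraries of litter 3, at 10214 and 10910 against 11645 or more elsewhere. In litter 5 the principal transcripts held 71.4% and 74.7% of all TPM, against 59.0% to 64.9% in the other litters. In bulk RNA, fewer cells that make a transcript and less transcript per cell cannot be told apart.

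Cxcl2, also called MIP-2, was the dominant member. In litters 1 to 6 it measured 2615, 4105, 7389, 1194, 417 and 2553 TPM in libraries labelled ErbB4 myeKO and 2276, 354, 5914, 282, 457 and 1725 TPM in ErbB4 FF. The 2 libraries of litter 3 were the highest of the 12, those of litter 5 and the ErbB4 FF libraries of litters 2 and 4 the lowest, and the 2 groups overlapped over nearly their whole range. Its rank among the 22243 genes of a library was between 10 and 389. It exceeded Cxcl1 in 12 of 12 libraries by 3.88 to 10.1 times (median 6.17), and it made up 71.6% to 88.6% of the summed TPM of the 4 members. The authors' mean on the natural log scale corresponds to about 8654 normalized counts per library for Cxcl2, 1104 for Cxcl1, 584 for Cxcl3 and 88.6 for Cxcl5, so counting error was largest for Cxcl5.

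Cxcl1, also called KC, is the mouse chemokine most often measured in blood as a sign of inflammation. It measured 403, 407, 1323, 146, 108 and 437 TPM in ErbB4 myeKO libraries of litters 1 to 6 and 323, 40.4, 1128, 56.9, 80.9 and 187 TPM in ErbB4 FF. Litter 3 again stood above all others in both genotypes, and the groups overlapped. Cxcl1 exceeded Cxcl3 in 10 of 12 libraries, the exceptions being both libraries of litter 6, and its share of the summed TPM was 8.42% to 18.5%.

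Cxcl3, a close relative of Cxcl2, varied most of the 4. It measured 308, 107, 898, 77.2, 21.2 and 543 TPM in ErbB4 myeKO libraries of litters 1 to 6 and 257, 7.68, 628, 18.1, 19.1 and 299 TPM in ErbB4 FF. Its highest level was 81.7 times its lowest among ErbB4 FF libraries and 42.4 times among ErbB4 myeKO libraries. By SD of log2 TPM over the 12 libraries it ranked 16 of the 8780 genes, against 182 for Cxcl2, 206 for Cxcl1 and 556 for Cxcl5.

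Cxcl5, also called LIX, was first known from LPS-treated fibroblasts and is made by epithelial and stromal cells as well as by myeloid cells. It measured 9.15, 13.9, 9.39, 4.06, 36.9 and 30.4 TPM in ErbB4 myeKO libraries of litters 1 to 6 and 31.7, 2.96, 4.52, 2.34, 22.9 and 7.25 TPM in ErbB4 FF. Its order of libraries differed from that of the other 3: litter 5, among the lowest for Cxcl1, Cxcl2 and Cxcl3, was high for Cxcl5, and litter 3 was not. In both libraries of litter 5 Cxcl5 exceeded Cxcl3, while Cxcl3 was the higher in the other 10. Over the 12 libraries log2 Cxcl5 correlated with log2 of the summed stromal markers at r = 0.52, against -0.17 for Cxcl1, -0.21 for Cxcl2 and -0.04 for Cxcl3. With the summed neutrophil markers r was 0.42 for Cxcl5, -0.52 for Cxcl1, -0.57 for Cxcl2 and -0.34 for Cxcl3, and with the macrophage markers it was 0.02, -0.33, -0.42 and -0.42. These are descriptions of libraries that share litters, and the part of other cells in the levels was not tested.

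**Figure D2:**
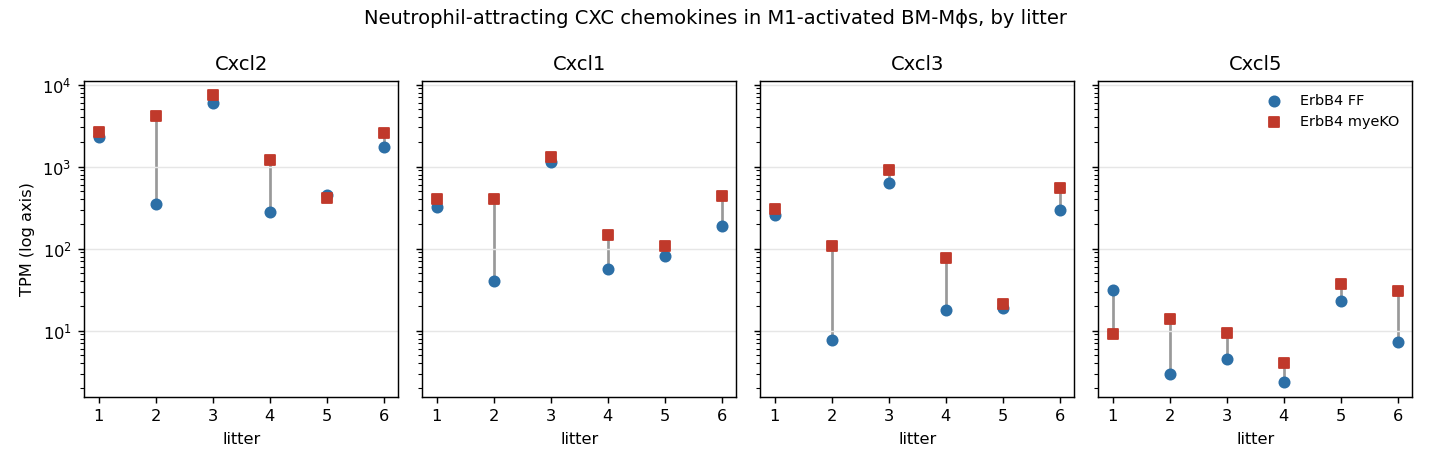
Levels of Cxcl2, Cxcl1, Cxcl3 and Cxcl5 in TPM (log axis) in each of the 12 libraries by litter, with ErbB4 FF as circles and ErbB4 myeKO as squares, joined within a litter. The widest gaps between littermates lie in litters 2 and 4 for the first 3 genes, and Cxcl5 in litter 1 runs the other way.

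The difference by genotype was read within litters, as the log2 ratio of ErbB4 myeKO to ErbB4 FF after adding 0.5 TPM. For Cxcl1 the ratio was 0.32, 3.32, 0.23, 1.35, 0.41 and 1.23 in litters 1 to 6, above 0 in 6 of 6. Mean TPM was 471 ± 441 (SD, n = 6) against 303 ± 418, and the log2 ratio averaged 1.14 ± 1.17 (SD, n = 6 litters). In limma the ratio had an SE of 0.39, a 95% interval of 0.23 to 2.05, an unadjusted p of 0.0204 and an adjusted p of 0.603. The two-sided exact permutation test over the 64 swaps within litters gave p = 0.03125, the smallest that 6 litters allow.

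Cxcl3 was likewise higher in 6 of 6 litters, with log2 ratios of 0.26, 3.72, 0.52, 2.07, 0.15 and 0.86. Mean TPM was 326 ± 340 against 205 ± 244 (SD, n = 6), and the mean log2 ratio 1.26 ± 1.39. Limma gave an SE of 0.46, an interval of 0.18 to 2.34, an unadjusted p of 0.0276 and an adjusted p of 0.603, and the exact permutation p was 0.03125. For Cxcl2 the log2 ratios were 0.20, 3.53, 0.32, 2.08, -0.13 and 0.57, above 0 in 5 of 6 litters. Its mean TPM was 3046 ± 2480 against 1835 ± 2161 (SD, n = 6), and its mean log2 ratio of 1.09 ± 1.42 had an interval of -0.01 to 2.20 (limma, SE 0.47, unadjusted p = 0.0516, adjusted p = 0.603; exact permutation p = 0.0625).

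For Cxcl5 the log2 ratios were -1.74, 2.06, 0.98, 0.68, 0.68 and 1.99. It was lower in the ErbB4 myeKO library of litter 1 and higher in the other 5. Mean TPM was 17.3 ± 13.2 against 12.0 ± 12.3 (SD, n = 6), and the mean log2 ratio 0.78 ± 1.38 (limma SE 0.46, interval -0.30 to 1.86, unadjusted p = 0.135, adjusted p = 0.644; exact permutation p = 0.25). Without litter 1 the mean was 1.28 ± 0.70 (n = 5; limma unadjusted p = 0.00192; exact permutation p = 0.0625, the smallest that 5 litters allow). Without litter 2 it was 0.52 ± 1.37 (limma unadjusted p = 0.321; exact permutation p = 0.5) and without litter 6 it was 0.53 ± 1.39 (limma unadjusted p = 0.332; exact permutation p = 0.5). The summed stromal markers were 116 and 127 TPM in the ErbB4 myeKO and ErbB4 FF libraries of litter 1, 53.0 and 18.5 in litter 2, 14.2 and 22.7 in litter 3, 45.9 and 80.4 in litter 4, 98.6 and 47.8 in litter 5, and 101 and 51.1 in litter 6. They moved in the direction of Cxcl5 in litters 1, 2, 5 and 6 and against it in litters 3 and 4.

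**Figure D3:**
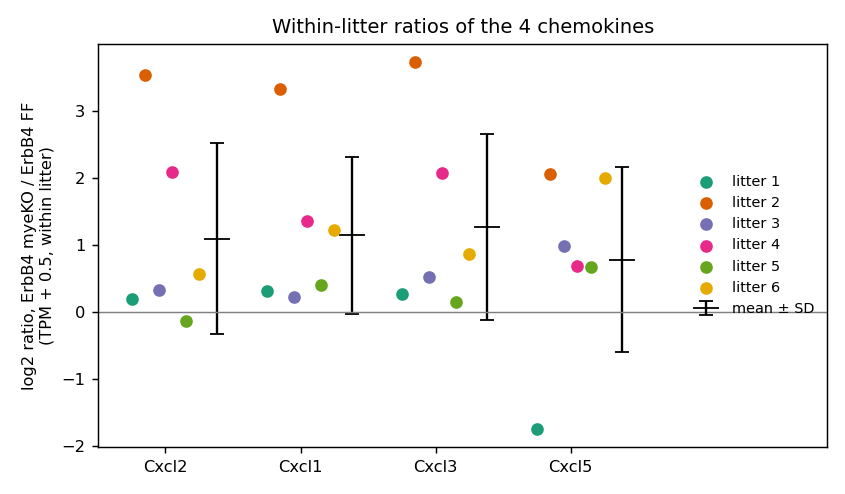
Within-litter log2 ratio of ErbB4 myeKO to ErbB4 FF (TPM + 0.5) for each chemokine, 1 point per litter, with the mean and SD over 6 litters. Litter 2 gives the highest ratio for all 4 genes, and litter 1 gives the only ratio below -1, for Cxcl5.

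In limma none of the 4 members passed the adjusted threshold, and 0 of all 8780 genes did (0%), the smallest adjusted p being 0.603. At an unadjusted p under 0.05, 2 of the 4 members (Cxcl1 and Cxcl3) were higher, against 336 of the 8780 genes (3.83%), and 8.21% of genes passed that level in either direction. A ratio above 0 in 6 of 6 litters, as in these 2 members, occurred in 220 genes (2.51%). The ratios of Cxcl1 and Cxcl3 went together over the litters (r = 0.96), so the 2 are not independent. The authors had already reported enriched expression of Cxcl1, Cxcl2 and Cxcl3 from the same libraries. By size of the mean log2 ratio the members ranked 35 (Cxcl3), 55 (Cxcl1), 62 (Cxcl2) and 159 (Cxcl5) among the 8780 genes, whose median ratio was close to 0 (-0.0007).

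The size of the ratios rested on few litters. In litter 2 the ErbB4 myeKO library held 9.96 times the Cxcl1 of its littermate, 11.6 times the Cxcl2, 13.2 times the Cxcl3 and 4.17 times the Cxcl5, and in that litter Cxcl3, Cxcl2 and Cxcl1 ranked 16, 21 and 28 of all genes. In litter 4 the folds were 4.23 (Cxcl2), 4.19 (Cxcl3), 2.55 (Cxcl1) and 1.61 (Cxcl5). In litters 1, 3 and 5 the folds of Cxcl1, Cxcl2 and Cxcl3 lay between 0.912 and 1.43. Without litter 2 the mean log2 ratios were 0.77 (Cxcl3), 0.71 (Cxcl1), 0.61 (Cxcl2) and 0.52 (Cxcl5). The exact permutation p was then 0.0625 for Cxcl1 and Cxcl3, the smallest possible, and the unadjusted limma p was 0.00897 and 0.0277. Without litter 4 the unadjusted limma p of Cxcl3 was 0.0752, and without litter 6 those of Cxcl1 and Cxcl3 were 0.0526 and 0.05004, while the mean ratios stayed between 1.10 and 1.34. For Cxcl2 the unadjusted limma p was 0.0492 without litter 1, 0.0351 without litter 5 and 0.0442 after scaling to equal principal sums.

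Much of the variation lay between litters, which carry 5 degrees of freedom against 1 for genotype. Of the sum of squares of log2 TPM over the 12 libraries, litter took 83.8% (Cxcl3), 74.1% (Cxcl1), 70.7% (Cxcl2) and 65.2% (Cxcl5), and the median over all genes tested was 78.1%. Genotype took 8.08%, 13.8%, 12.2% and 9.58% in the same order, where the median gene had 2.49%.

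Levels of Cxcl1, Cxcl2 and Cxcl3 went up and down together across the libraries. Over the 12 libraries, as a description, log2 TPM of Cxcl1 and Cxcl2 correlated at r = 0.97, Cxcl1 and Cxcl3 at 0.93 and Cxcl2 and Cxcl3 at 0.92, whereas Cxcl5 correlated with them at 0.14 to 0.21. Within ErbB4 myeKO libraries the r of Cxcl5 was -0.15 with Cxcl1, -0.33 with Cxcl2 and -0.19 with Cxcl3, and within ErbB4 FF libraries it was 0.25, 0.27 and 0.28 (n = 6 each). Over the 6 litters the log2 ratios of Cxcl2 and Cxcl3 had r = 0.996 (exact permutation p = 0.00139, adjusted 0.00833 over 6 pairs) and Spearman rho = 1 (exact permutation p = 0.00278, adjusted 0.0167), with r = 0.94 once the 2 litters farthest from the median were left out. The permutations of these correlations reorder the litters of 1 gene against those of the other. They are not swaps of genotype and do not test it. For Cxcl1 with Cxcl2 and with Cxcl3, r was 0.94 and 0.96 (exact permutation p = 0.00833 for both, adjusted 0.0167), and rho was 0.77 for both (exact permutation p = 0.103, adjusted 0.123), with r = 0.81 and 0.87 without 2 litters. For Cxcl5 with the other 3, r was 0.47 to 0.60 and rho 0.54 to 0.77, and no pair passed (smallest adjusted exact permutation p = 0.31 for r and 0.123 for rho). The rho of Cxcl5 with Cxcl2 and with Cxcl3 was the same as that of Cxcl1 with each, and whether the correlations differ was not tested. Cxcl2 and Cxcl3 share the stretches of sequence given above, and how much of their likeness comes from shared reads was not tested.

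**Figure D4:**
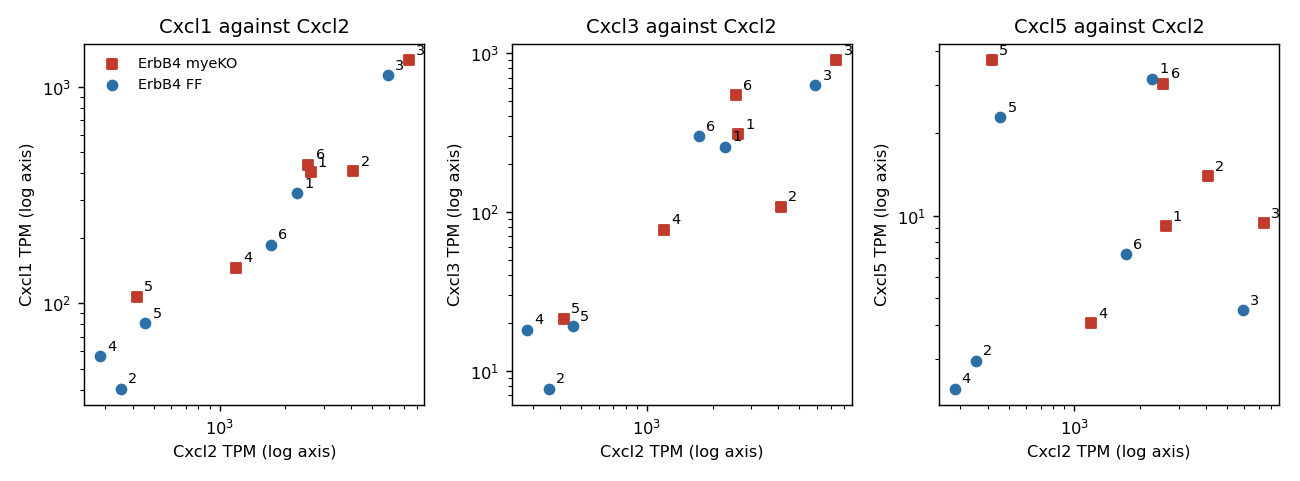
TPM of Cxcl1, Cxcl3 and Cxcl5 against TPM of Cxcl2 (log axes) in the 12 libraries, with ErbB4 FF as circles, ErbB4 myeKO as squares and the litter number beside each point. Cxcl1 and Cxcl3 climb with Cxcl2 (r = 0.97 and 0.92 on the log2 scale), and Cxcl5 is scattered (r = 0.14).

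Whether members differed from each other in their ratio was tested for the 6 pairs, and no difference passed. With 6 litters and 6 pairs, a single differing pair cannot reach an adjusted p below 0.1875. The intervals printed are t intervals of single pairs, not adjusted for the 6 pairs. The closest was Cxcl2 against Cxcl3, with a mean difference of -0.17 on the log2 scale (95% interval -0.30 to -0.04), below 0 in 5 of 6 litters (exact permutation p = 0.0625, adjusted 0.375). For Cxcl1 minus Cxcl2 the difference was 0.05 (interval -0.49 to 0.59), and for Cxcl1 minus Cxcl3 it was -0.12 (interval -0.56 to 0.32). Intervals for the pairs with Cxcl5 were wide: 0.37 for Cxcl1 minus Cxcl5 (-0.85 to 1.58), 0.32 for Cxcl2 (-1.19 to 1.83) and 0.49 for Cxcl3 (-0.92 to 1.90), so that for Cxcl2 minus Cxcl5 the interval held differences of more than 1 on the log2 scale in both directions.

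Of the other genes within 100 kb of the members, 1 was tested. Pf4, a platelet CXC chemokine without the Glu-Leu-Arg letters, lies between Cxcl5 and Cxcl3 and measured 29.6 ± 13.9 TPM (SD, n = 6) against 26.8 ± 12.5, a higher mean than that of Cxcl5 in both groups, with a log2 ratio of 0.18 ± 0.39 (limma unadjusted p = 0.251, adjusted 0.709). Ppbp, the precursor of another platelet chemokine, did not exceed 3.01 TPM, Mthfd2l, a mitochondrial folate enzyme gene, did not exceed 0.907 TPM, and Cxcl15, a lung chemokine, was above 0 in 1 library (0.0601 TPM). The receptors of the members were near 0. Cxcr1 was listed at 0 in all 12 libraries, Cxcr2 did not exceed 0.518 TPM, and Ackr1, a receptor that binds the chemokines without signalling, did not exceed 0.106 TPM.

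Genes that sense LPS and carry its signal came next. Of 23 tested genes of LPS sensing and the NF-κB route, 0 passed an unadjusted p under 0.05 in limma, beside 8.21% of all genes, and their median log2 ratio was 0.06. Of the 23, 7 had a ratio below 0 (11 without litter 1 or litter 4), beside 50.2% of all genes. The count was 1 without litter 4, with the Y-linked covariate or after scaling to equal principal sums, and the median was 0.01 without litter 1, 0.02 without litter 4 and 0.03 with the covariate. The NF-κB subunits Rela, Rel and Nfkb1 had log2 ratios of 0.03, 0.06 and 0.15, and the subunits Nfkb2 and Relb -0.03 and -0.06. The largest ratios belonged to Map3k7, the kinase TAK1, at 0.84 (SE 0.74) and to Ikbkg, the NF-κB essential modulator, at 0.36 (SE 0.17), and the smallest to Ly96, the LPS-binding partner of Tlr4, at -0.45 (SE 0.22) and to Myd88, the Toll-like receptor adaptor, at -0.11 (SE 0.07).

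Of 9 tested inducing cytokines and receptors, 1 was higher at an unadjusted p under 0.05, beside 3.83% of all genes. The count was 0 without litter 4 and 2 without litter 3 or after scaling to equal principal sums, and 1 gene was lower without litter 5. The gene was Il36g, an IL-1 family cytokine, at a log2 ratio of 0.31 ± 0.25 (SD, 6 of 6 litters, exact permutation p = 0.03125, limma adjusted p = 0.603). Tnf, which induces the chemokines in neighbouring cells, measured 2721 ± 1662 TPM against 2053 ± 1638 (SD, n = 6), with a log2 ratio of 0.51 ± 0.68 and a higher level in 6 of 6 litters (exact permutation p = 0.03125, limma adjusted p = 0.603). Il1a had a log2 ratio of 0.80 ± 1.41 (exact permutation p = 0.219) and Il1b, at 8574 TPM against 6928, one of 0.25 ± 0.75 (exact permutation p = 0.5). Ratios were -0.16 and -0.07 for the TNF receptors Tnfrsf1a and Tnfrsf1b. The list's median was 0.25, and 0.03 without litter 2, and 3 of the 9 were below 0.

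Among genes that restrain the chemokines' transcription or mRNA, 17 of 22 tested had a ratio below 0, beside 50.2% of all genes, with a median of -0.13, and 0 passed the adjusted threshold. At an unadjusted p under 0.05, 4 of the 22 were lower, beside 4.38% of all genes, and 0 were higher. That count of 4 was 1 without litter 2, 2 without litter 4 and 2 after scaling to equal principal sums, and 1 gene was higher without litter 5 or after that scaling. Without litter 3 the ratio was below 0 in 14 of 22, with a median of -0.02. Dusp1, the phosphatase that switches off p38 kinase, measured 218 ± 87.4 TPM against 283 ± 108 (SD, n = 6) and was lower in 6 of 6 litters, at a log2 ratio of -0.39 ± 0.29 (exact permutation p = 0.03125, limma adjusted p = 0.603). The others were Bcl3, a nuclear IκB protein, at -0.32 ± 0.31, Il1rn, the IL-1 receptor antagonist, at -0.23 ± 0.22, and Tnip3, an A20-binding inhibitor of NF-κB, at -0.26 ± 0.31, each lower in 5 of 6 litters (limma adjusted p = 0.603 for each). Zfp36, tristetraprolin, had a ratio of -0.14 ± 0.43 (exact permutation p = 0.469), and Nfkbia and Tnfaip3, feedback inhibitors induced by NF-κB itself, had ratios of -0.00 and 0.05. Tnip1 was the lowest of the list at -0.75 (SE 0.52), on levels of 0 to 10.2 TPM, and the roquin genes Rc3h1 and Rc3h2 were the highest at 0.25 and 0.17.

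Of 13 other genes of neutrophil recruitment and survival, 2 were higher and 1 was lower at an unadjusted p under 0.05, beside 3.83% and 4.38% of all genes, and the median ratio was 0.28 (0.08 without litter 2 and 0.15 without litter 4), with 4 of the 13 below 0. The count higher was 1 without litter 2, without litter 4 or with the Y-linked covariate, 3 without litter 3 and 0 without litter 6, and the count lower was 0 without litter 2, 3 or 4. Csf1, the macrophage growth factor M-CSF, had a log2 ratio of 0.80 ± 0.78, above 0 in 4 of 6 litters, and Ptgs2, the prostaglandin synthase COX-2, one of 0.60 ± 0.68, above 0 in 5 of 6. Saa3, an acute-phase protein gene, was lower in 5 of 6 litters, at -0.35 ± 0.35, and the limma adjusted p was 0.603 for all 3. Csf3, the granulocyte growth factor G-CSF, had a ratio of 0.28 ± 1.05, Il6 one of 0.71 ± 0.97 and Lcn2, neutrophil gelatinase-associated lipocalin, one of -0.20 ± 0.37 (exact permutation p = 0.594, 0.156 and 0.25). Fcgr1, Mertk, Camp, Ngp, Csf3r, S100a9, Xcr1, Clec9a, Pecam1, Mki67, Rela, Rel, Nfkb1, Nfkb2, Relb, Il1b, Zfp36, Nfkbia, Tnfaip3 and Csf3 were named after their values had been seen.

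**Figure D5:**
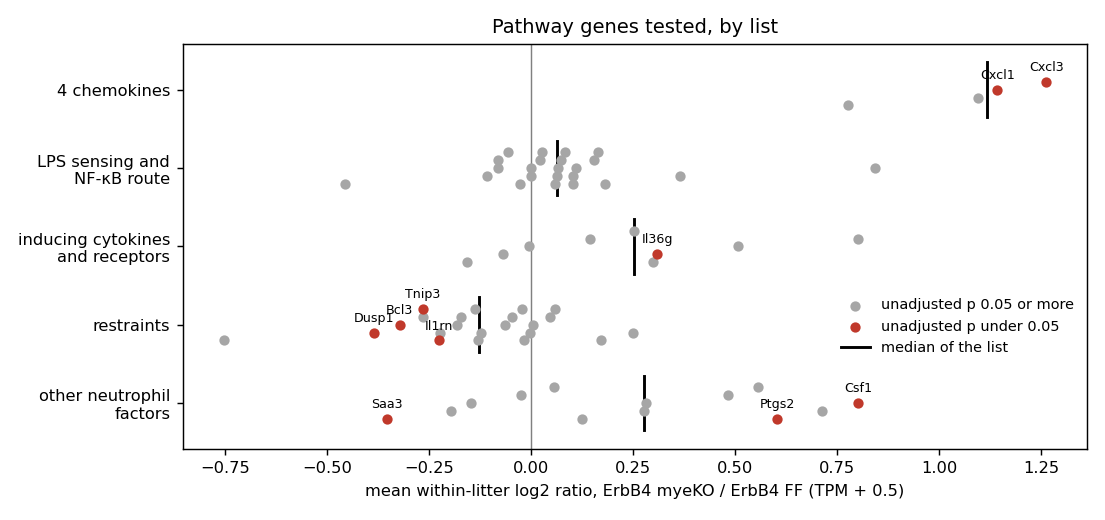
Mean within-litter log2 ratio of each tested gene of 4 pathway lists, with the 4 chemokines at the top, 1 point per gene and a vertical bar at the list's median. Genes at an unadjusted limma p under 0.05 are drawn in red and named, and none passed the adjusted threshold.

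The genes most like the mean log2 TPM of Cxcl1, Cxcl2 and Cxcl3 over the 12 libraries, among 4212 genes averaging 10 TPM or more, were Ampd3 (r = 0.976), an AMP deaminase, Ddb1 (0.973), a subunit of a ubiquitin ligase, and Slc7a11 (0.967), the cystine transporter. Phlda1 (0.965), Zadh2 (0.963), the RNA helicase Ddx21 (0.962), the receptor tyrosine kinase gene Met (0.960) and Mybbp1a (0.959) came next. Their r ran from 0.935 to 0.982 once the ErbB4 FF libraries of litters 2 and 4, the farthest from the median, were left out. Ampd3 ranged from 14.1 to 139 TPM and Slc7a11 from 15.8 to 375 TPM, whereas Ddb1 only spanned 49.8 to 73.4 TPM. For Cxcl5 the nearest were Adm, the vasodilator peptide adrenomedullin (r = 0.863), Pa2g4 (0.851), the fatty acid carrier Fabp4 (0.850), Ccny (0.848) and C1qbp (0.848). Without the ErbB4 myeKO library of litter 5 and the ErbB4 FF library of litter 4 these were 0.857 (Adm), 0.765 (Pa2g4), 0.840 (Fabp4), 0.793 (Ccny) and 0.751 (C1qbp). These correlations are descriptions over 12 libraries that share litters and a common TPM scale.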

How the data were processed

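BM-Mɸs of 12 mice were sequenced, and groups and litter numbers were taken from the labels, which number littermates alike. The authors pseudoaligned single-end reads of a stranded mRNA kit to the mouse transcriptome by kallisto. They deposited TPM, which sum to a fixed total over all transcripts of a library, for transcripts that APPRIS marks as principal. The labels name mm10 and CASAVA, and versions are not given in the sources used here. A deposited column of sleuth's holds each transcript's natural log of normalized counts, averaged over libraries and used here only to judge depth, and their own test columns (p, q, ratio of genotypes), which were not used. TPM carry no read totals, which were not used here, so precision rests on the spread between mice.

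Of 29213 lines, 405 repeated a transcript and were dropped, and TPM of the other 28808 were summed per gene (22243 genes). Genes averaging 1 TPM or more (8780) entered 1 limma model (limma 3.58.1, R 4.3.3, lmFit and trended eBayes) of log2(TPM + 0.5) on genotype and litter, the litter serving as block. A gene was called when its p after Benjamini-Hochberg adjustment was under 0.05. The added 0.5 understates ratios of low genes. Because each member had 1 transcript in the table, a fit over transcripts holds the same member values. Single genes were tested by two-sided exact permutation over swaps within litters. Littermates' deviations from their group means correlated at 0.273 to 0.774 across genes, and the pairing itself rests on the numbers in the labels. Each sample is a separate mouse. The fit was tested on simulated data. Other steps ran in Python 3.11.15 (pandas 2.3.3, numpy 2.4.6, scipy 1.17.1). GENCODE M21 gave positions and transcripts, and RefSeq gave promoter windows for 3 of the 4 members, all but Cxcl5.

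The members, the pathway and marker lists and the alternatives were chosen with earlier results of these data known. Genes named are the members, Erbb4, the 2 largest and 2 smallest ratios of each pathway list and any at an unadjusted p under 0.05, neighbours within 100 kb, and the 8 (Cxcl1 to Cxcl3) or 5 (Cxcl5) genes of highest correlation. Other genes named were chosen after their values were seen. Alternatives were no litter block, the mean of 4 Y-linked genes in place of sex, adding 0.1 or 1 TPM before the logarithm, dropping the filter or raising it to 5 TPM, rescaling by median ratios or to equal principal sums, limma without trend, the highest transcript alone, and each litter left out. Counts and medians of the pathway lists under these settings were added after the data had been seen.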

Additional observations from a re-analysis of the deposited data

Results flagged for a closer look

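Of 15 sets of 6 values examined (TPM of the members and Erbb4 in each genotype, and their within-litter ratios), 6 held a value set far apart from the other 5 by Dixon's gap test, which chance alone meets in about 1 of 20 sets of normal values. Litter 3 was the high value for Cxcl1 in ErbB4 myeKO (1323 TPM), Cxcl1 in ErbB4 FF (1128 TPM), Cxcl2 in ErbB4 FF (5914 TPM) and Erbb4 in ErbB4 FF (0.716 TPM). These sets are not independent, since both libraries of litter 3 were high for Cxcl1 and Cxcl2. The other 2 were ratios: 3.32 on the log2 scale for Cxcl1 in litter 2, and -1.74 for Cxcl5 in litter 1. On the log2 scale, tried after the data had been seen, the gap of litter 3 over the range was 0.44, 0.38 and 0.31 for the 3 chemokine sets, no longer past the limit for 6 values, and 0.80 for Erbb4, which stayed past it. Causes were not tested.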

How the results depend on the processing

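The log2 ratio of each member stayed above 0 and short of the adjusted threshold under all 16 alternatives, at 0.71 to 1.32 for Cxcl1, 0.61 to 1.34 for Cxcl2, 0.77 to 1.48 for Cxcl3 and 0.52 to 1.28 for Cxcl5, with adjusted p of 0.4996 or more. No gene of the whole table passed in 15 alternatives, and 1 did (Igkv1-88, an immunoglobulin gene, chosen after its values were seen) without litter 3, so that leaving out a litter gave 0 to 1. At an unadjusted p under 0.05 the fit with litter as a block called 721 genes, the fit without the replicate block 75, and leaving out a litter gave 410 (without litter 2) to 860; it gave 455 without litter 4. Without the block the unadjusted p was 0.18 for Cxcl1 and 0.312 for Cxcl3, and 0 genes of the pathway lists were under 0.05; the block changed no call at the adjusted threshold. Cxcl1 minus Cxcl2 ran from -0.075 to 0.20 with a litter left out, turning sign without litter 5 (-0.05) and litter 6 (-0.075), and Cxcl2 minus Cxcl5 ran from -0.0054 (without litter 1) to 0.67. The other ranges were 0.028 (without litter 1) to 0.59 for Cxcl1 minus Cxcl5, 0.18 (without litter 1) to 0.81 for Cxcl3 minus Cxcl5, -0.22 to -0.0015 (without litter 4) for Cxcl1 minus Cxcl3, and -0.20 to -0.14 for Cxcl2 minus Cxcl3. Unstimulated cells and protein levels were not analysed here, and sex, which the labels do not give, stayed unadjusted except by the Y-linked covariate, under which Cxcl1 and Cxcl3 had unadjusted p of 0.0349 and 0.0365.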
